A study of Homo sapiens with 24 samples.

Results

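The 9 metallothionein genes MT1A, MT1B, MT1E, MT1F, MT1G, MT1H, MT1M, MT1X and MT2A were followed in HT29 cells, an established line of human colon adenocarcinoma. They were taken by name: every probe of the array that is not a control and carries one of these 9 gene names was used, which gave 12 probes out of 50599 probes with 36337 names. Of these 12 probes, 11 were clearly detected (well above background, by the scanner software's flag) throughout some group of 4 arrays and were tested, so that each of the 9 genes was tested by at least 1 probe. The probe left out is the second one of MT1H, which was well above background on 0 of 24 arrays. All member probes lie on chromosome 16 within the metallothionein cluster.

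Every culture was of the same line and was analysed 6 h after treatment, with 4 arrays in each of 6 groups. Untreated cells formed the group NT. C3/C2 cells received propionate at 30 mM together with acetate at 15 mM, which are the amounts of both acids in the diluted supernatant. SN cells received the supernatant of a Propionibacterium freudenreichii culture grown in DMEM, diluted 1/2. TRAIL cells received the death ligand TRAIL at 100 ng/ml with the cross-linking antibody anti-Flag M2 at 2 µg/ml, and TRAIL+C3/C2 and TRAIL+SN cells received both agents at once. A group is thus 1 cell line at 1 dose and 1 time. The study describes 2 independent experiments carried out in duplicate, so the 4 arrays of a group are not 4 independent experiments. It does not say which replicate numbers belong together. The p-values thus measure the spread between arrays, which may in part be technical.

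Metallothioneins are small proteins in which cysteine residues hold zinc, copper and cadmium. Their genes are switched on by the metal-responsive factor MTF1, which senses free zinc and binds short metal response elements in their promoters, and in the gut epithelium they buffer the metals that the cell takes up. MT2A is the most widely expressed human form, and the MT1 genes arose by repeated duplication, so their coding sequences are nearly alike.

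This likeness bears on what a probe can tell. The probes of MT1A (chr16:56673205-56673808), MT1H (chr16:56704448-56704833) and the first probe of MT1X (chr16:56717082-56717141; coordinates on hg19) lie in coding sequence, and those of MT1A and MT1H span an intron. They are shown because MT1H shares an unbroken run of 26 bases with MT1X and of 27 bases with MT1A. In MT1H, capitals mark the 40 bases covered by either run, and in the other probes the run shared with MT1H.
MT1X coding: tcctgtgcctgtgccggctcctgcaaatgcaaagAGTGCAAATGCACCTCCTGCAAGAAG
MT1H coding: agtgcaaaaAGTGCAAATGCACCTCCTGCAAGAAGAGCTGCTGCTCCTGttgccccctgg
MT1A coding: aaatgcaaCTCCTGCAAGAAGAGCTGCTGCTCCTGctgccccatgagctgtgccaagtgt
Where these probes overlap in the alignment, MT1H and MT1X matched at 32 of 33 positions and MT1A and MT1H at 42 of 45. A transcript of one of these genes may therefore bind the probe of another, and how much of each signal comes from the named gene was not tested.

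The other probes reach into the part behind the stop codon, where the genes differ more. The probes of MT1F (chr16:56693077-56693136), MT1G (chr16:56700693-56700752, minus strand), MT1M (chr16:56667810-56667869) and MT2A (chr16:56643332-56643391), and a second probe each of MT1E, MT1H and MT1X, lie wholly 3′ of the stop codon. The first 30 bases of MT1F, MT1H and MT1X are given to show how far such probes differ, with capitals at the 9 positions where the 3 are not all alike.
MT1F: tgCcAggacaAcCTtTctCCcagatgTaaa
MT1H: tgTcGggacaGcCCtGctGTcagatgAaaa
MT1X: tgCcAggacaGcTGtGctCTcagatgTaaa
Over their full length the MT1F and MT1X probes matched at 49 of 60 positions, with no shared run over 15 bases.

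The probes of MT1B (chr16:56686948-56687007) and the brighter one of MT1E (chr16:56660853-56660912) cross the end of the coding sequence, and their last 30 bases up to the stop codon, in capitals, show that these differ little.
MT1B: tcatcagagaagtgccgctgctgtgccTGA
MT1E: gcatcggagaagtgcagctgctgtgccTGA
They matched at 49 of 58 aligned positions. MT1M, the member with the largest change against NT, has the probe with the least GC of the 12, 30.0% against a median of 43.3% over all probes of the array, and 1.74% of all probes are at or under that value. Its first 30 bases show this composition.
MT1M: ttttttcaatacgatactgagccatttgct

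Signals are given as levels, which are log2 intensities minus that array's 75th percentile, so that 0 is a bright spot and one unit is a doubling. A level belongs to its probe, and levels of different probes were not ranked against each other. A gene is said to have risen or fallen where the adjusted p of the limma fit was under 0.05, and to be called where the change was also at least 2-fold. Whether the arrays of groups overlapped is given as a description only. The share of all genes without overlap was not counted. Where a gene has more than 1 probe, it was counted by its brightest probe, which for MT1E is the one across the stop codon and for MT1H and MT1X the coding one. The arrays of a group correlated at 0.992 to 0.997. The 8 markers of colon epithelium were well above background on all 24 arrays. Of 4 fibroblast markers, COL1A2, COL3A1 and DCN were well above background on 0 arrays, while COL1A1 was so on all 16 arrays with C3/C2 or SN and on 0 of the 8 others, which took the summed level of the list from 0.0247 to 0.0351 in NT to 0.377 to 0.434 in C3/C2 and 0.633 to 0.799 in SN (linear units of the 75th percentile). Of the white blood cell markers reported, PTPRC and CD14 were well above background on all 24 arrays and CD3E on 10, and the summed level of these 3 was 1.51 to 1.98 in NT, 2.70 to 3.49 in C3/C2 and 3.40 to 4.52 in SN. The part of these shifts in the results was not tested.

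The slides matter for which groups can be set side by side. Replicate 1 of NT and of C3/C2 shared slide 1, their other replicates shared slide 2, all SN and TRAIL arrays shared slide 3, and both co-treatments shared slide 4. C3/C2 was thus compared with NT within slides, and SN with TRAIL, like the 2 co-treatments with each other, on 1 slide. For SN, TRAIL and the co-treatments against NT, and for SN against C3/C2, slide and treatment cannot be told apart.

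The supernatant was first compared with the acids it contains, which asks whether its other components matter for these genes. Metallothionein signals were higher with SN than with C3/C2 in 8 of the 9 genes, and MT1M alone was lower. When both were given with TRAIL and compared on 1 slide, 6 of these 8 genes were higher with SN, by smaller differences, and MT1F, MT1G and MT1M did not pass the test.

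MT2A, the main form, had levels of 4.67, 4.64, 4.64 and 4.51 in SN replicates 1 to 4, against 4.08, 4.03, 3.98 and 3.90 with C3/C2. The SN arrays lay above all C3/C2 arrays, by 0.62 (SE 0.11, 1.53-fold, adjusted p = 0.000148). With TRAIL, its levels were 4.72, 4.86, 4.61 and 4.60 in TRAIL+SN and 4.34, 4.21, 3.97 and 4.01 in TRAIL+C3/C2. Again the groups did not overlap, and the difference was 0.56 (SE 0.11, 1.48-fold, adjusted p = 0.000501).

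MT1H, one of the inducible MT1 genes, had by its coding probe the widest difference between SN and C3/C2 among the genes that were higher. Its 3′ probe was well above background on 0 of 24 arrays, so the result rests on the coding probe alone. Its coding probe stood at 3.75, 3.65, 3.54 and 3.56 in SN and at 2.83, 2.35, 2.68 and 2.53 in C3/C2. Every SN array was above every C3/C2 array, and the difference of 1.03 (SE 0.11, 2.04-fold, adjusted p = 1.77e-07) is just past the fold of 2. It fell short without C3/C2 replicate 2 (MT1H 0.94), without SN replicate 1 (0.98) and with quantile normalization (0.99). With TRAIL, the levels were 3.51, 3.64, 3.54 and 3.53 in TRAIL+SN against 3.30, 3.09, 3.14 and 3.13 in TRAIL+C3/C2, a difference of 0.39 (SE 0.11, adjusted p = 0.00644).

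MT1X was read by a coding probe and a 3′ probe, and both were higher with SN than with C3/C2. The 3′ probe had levels of −0.98, −1.13, −1.27 and −1.35 in SN and −1.84, −1.94, −2.09 and −2.06 in C3/C2, a difference of 0.80 (SE 0.13, adjusted p = 6.09e-05). The coding probe differed by 0.87 (SE 0.09, adjusted p = 1.32e-07). On the slide of the co-treatments, the differences were 0.49 for the 3′ probe (adjusted p = 0.00682) and 0.42 for the coding probe (adjusted p = 0.000942), with no overlap between the groups by either probe.

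MT1F and MT1G, which have 3′ probes of low signal, were also higher with SN, but with a wide spread. MT1F stood at −0.72, −0.80, −1.21 and −1.18 in SN and −1.51, −1.64, −1.87 and −1.88 in C3/C2, a difference of 0.75 (SE 0.24, adjusted p = 0.0146). MT1G stood at −3.53, −3.05, −2.84 and −3.19 in SN and −3.76, −4.12, −4.03 and −4.06 in C3/C2, a difference of 0.84 (SE 0.25, adjusted p = 0.00872). Neither gene overlapped between SN and C3/C2. With TRAIL the groups overlapped and the test was not passed, with differences of 0.47 for MT1F (95% interval −0.03 to 0.97, adjusted p = 0.132) and 0.58 for MT1G (0.06 to 1.10, adjusted p = 0.0723). With the replicate number as a block, MT1F passed in this comparison (adjusted p = 0.00436). MT1G was not above background on 1 TRAIL+C3/C2 array, where its level was −4.99.

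MT1A, MT1B and MT1E completed the set. MT1E differed by 0.77 between SN and C3/C2 (SE 0.08, 1.71-fold, adjusted p = 2.86e-07), with SN arrays at 4.32, 4.24, 4.24 and 4.19 and C3/C2 arrays at 3.56, 3.34, 3.55 and 3.45. MT1A differed by 0.57 (adjusted p = 4.51e-06) and MT1B by 0.55 (adjusted p = 2.97e-05). None of the 3 genes overlapped between these groups. In the co-treatments the differences were 0.33 for MT1E, 0.32 for MT1A and 0.45 for MT1B, with adjusted p of 0.00422, 0.00222 and 0.000364.

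In counts, 8 of 9 genes rose and 1 fell between C3/C2 and SN by adjusted p, where 21.5% of all genes tested rose and 25.5% fell. Here and in later counts, the 9 genes are not 9 separate readings. The coding probes of MT1A, MT1H and MT1X may bind transcripts of one another. The members had a median difference of 0.75, against −0.05 over all genes. With the fold of 2, only MT1H was called higher and MT1M lower, where 1.28% of all genes were called higher and 4.41% lower. Between TRAIL+C3/C2 and TRAIL+SN, 6 of 9 genes rose and 0 fell by adjusted p (15.8% and 21.6% of all genes), 7 had an unadjusted p under 0.05, and 0 were called (0.976% higher and 2.56% lower over all genes). The median difference was 0.42 for the members and −0.06 for all genes. All member probes other than that of MT1M were higher with SN than with C3/C2 under each of the 5 scalings and background corrections, and all 11 were higher in TRAIL+SN than in TRAIL+C3/C2 under each of them. The smallest possible exact permutation p for 4 arrays against 4 is 0.0286, so that the fit across all probes, and not a test gene by gene, gives the p-values here.

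**Figure D1:**
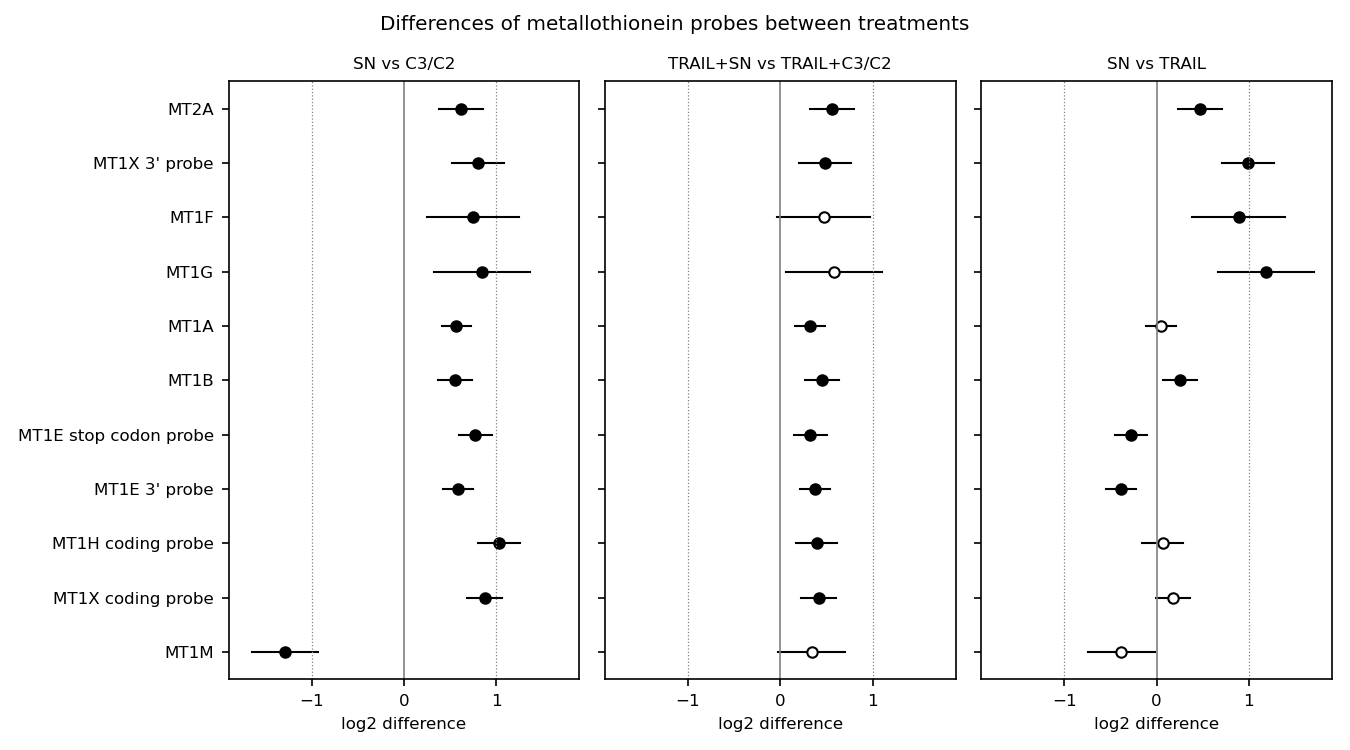
Each point is the log2 difference of 1 member probe, with its 95% confidence interval from the limma fit (n = 4 arrays a group), first for SN against C3/C2, then for TRAIL+SN against TRAIL+C3/C2, and last for SN against TRAIL. Filled points have an adjusted p under 0.05 and dotted lines mark a fold of 2. In the first panel every probe but that of MT1M lies to the right of 0, and in the second all do.

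Against untreated cells, part of the family was lower with the acids. C3/C2 cells had lower signals of MT1A, MT1B, MT1E, MT1H, MT1M and MT1X by their brightest probes, while the arrays of both groups overlapped in MT2A, MT1F and MT1G. This is the comparison in which slides hold both groups.

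MT1E fell the most after MT1M. Its brighter probe stood at 4.50, 4.27, 4.11 and 4.17 in NT and at 3.56, 3.34, 3.55 and 3.45 in C3/C2, a fall by 0.79 (SE 0.08, 1.73-fold, adjusted p = 4.58e-08). Its 3′ probe, which shares a run of 28 bases with the brighter one and is thus not a separate reading, fell by 0.86 (adjusted p = 3.27e-09). Within slide 1 the brighter probe differed by −0.94 (1 array against 1) and within slide 2 by −0.74 (3 against 3). MT1H fell by 0.54 (SE 0.11, adjusted p = 0.000157), MT1B by 0.49 (SE 0.09, adjusted p = 3.96e-05) and MT1A by 0.36 (SE 0.08, adjusted p = 0.000278). Their C3/C2 arrays lay below all NT arrays.

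The probes of MT1X went apart. The coding probe stood at 2.73, 2.52, 2.39 and 2.38 in NT and 2.24, 2.11, 2.04 and 1.96 in C3/C2, a fall by 0.42 (SE 0.09, adjusted p = 0.000353). The 3′ probe was at −1.89, −2.24, −2.51 and −2.31 in NT, with a difference of 0.26 (SE 0.13, 95% interval −0.02 to 0.54, adjusted p = 0.0995, and 0.0362 with the replicate number as a block). That difference changed sign with the scaling, from −0.04 to 0.26 over 5 settings, while the fall by the coding probe did not. MT2A differed by −0.09 (−0.33 to 0.15), MT1F by −0.04 (−0.54 to 0.46) and MT1G by 0.05 (−0.47 to 0.57).

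By adjusted p, 6 of 9 genes fell and 0 rose with C3/C2, where 27.7% of all genes fell and 35.2% rose. None of the 9 was called at 2-fold (13.4% of all genes were called higher and 6.18% lower), and 6 had an unadjusted p under 0.05. The median difference was −0.42 for the members and 0.08 for all genes.

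With SN against NT, the largest rises were read by 3′ probes. MT1X by its 3′ probe rose from the NT values above to −0.98, −1.13, −1.27 and −1.35, with no overlap and a difference of 1.06 (SE 0.13, 2.08-fold, adjusted p = 4.8e-07). It fell short of 2-fold without NT replicate 3 (0.96), without SN replicate 1 (0.99) and under 3 of the other scaling and background settings (MT1X 0.87 to 0.98). MT1G rose by 0.89 (SE 0.25, adjusted p = 0.00327), from −3.50, −4.01, −4.42 and −4.24 in NT. MT1F rose by 0.70 (SE 0.24, adjusted p = 0.0127), from −1.40, −1.43, −2.05 and −1.85. The NT and SN arrays of MT1G overlapped through NT replicate 1, and those of MT1F did not overlap.

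MT2A stood at 4.23, 4.26, 3.90 and 3.96 in NT, and its SN arrays were all higher, by 0.53 (SE 0.11, 1.44-fold, adjusted p = 0.000307). The coding probes of MT1H and MT1X rose by 0.49 (adjusted p = 0.000417) and 0.46 (adjusted p = 0.000116). MT1A rose by 0.20 (adjusted p = 0.0234). MT1B differed by 0.06 (95% interval −0.13 to 0.24) and MT1E by −0.01 (−0.19 to 0.16), with overlapping arrays, while the 3′ probe of MT1E fell by 0.28 (adjusted p = 0.00317).

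By adjusted p, 6 genes rose and 1 fell with SN (35.1% and 34.2% of all genes), and by the fold of 2 MT1M alone was called, as lower (14.2% of all genes were called higher and 9.75% lower). The median difference was 0.46 for the members and −0.02 for all genes. Leaving out NT replicate 3 lowered the number that rose to 4.

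SN lay on the same slide as TRAIL, so that these groups can be compared without a change of slide. MT1G was 1.19 higher with SN (SE 0.25, 2.27-fold, adjusted p = 0.000252), the 3′ probe of MT1X 0.99 higher (adjusted p = 1.32e-06), MT1F 0.89 higher (adjusted p = 0.00249) and MT2A 0.47 higher (adjusted p = 0.000965). None of these 4 probes overlapped between SN and TRAIL. The TRAIL levels were −3.97, −4.07, −4.36 and −4.95 for MT1G and 4.31, 4.38, 4.07 and 3.81 for MT2A. Without TRAIL replicate 4, MT1G differed by 0.98 and no gene was called, and with normexp background correction MT1G differed by 0.42. MT1B was 0.25 higher with SN (adjusted p = 0.0138), and MT1E was 0.27 lower (adjusted p = 0.0068), which under other scalings ranged from −0.50 to 0.003. By adjusted p, 4 of 9 genes were higher and 1 lower with SN than with TRAIL (32.5% and 33.9% of all genes), and 1, MT1G, was called (13.1% higher and 8% lower). The counts ran from 2 higher and 2 lower with the array median to 7 and 0 with the spike-in scaling. With the replicate number as a block, MT1X by its coding probe (0.18 higher) passed too (adjusted p = 0.00544).

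Under TRAIL+SN, MT1X by its 3′ probe rose against NT by 1.04 (SE 0.13, 2.06-fold, adjusted p = 5.41e-07), with arrays at −1.20, −1.08, −1.31 and −1.20. MT2A rose by 0.61 (SE 0.11, 1.53-fold, adjusted p = 5.91e-05) and stayed higher under all 5 scaling and background settings, from 0.14 to 0.61. The coding probes of MT1X and MT1H rose by 0.46 and 0.42 (adjusted p = 9.39e-05 and 0.00158), but their range over these settings reached −0.004 and −0.05. By adjusted p, 3 genes rose and 1 fell (37.4% and 32.7% of all genes), and MT1M was called lower (16.1% higher and 10.1% lower). These counts were 5 and 1 with normexp, 2 and 1 with the array median, and turned to 0 and 4 with the spike-in scaling. MT1F differed by 0.47 (adjusted p = 0.0882) and passed with the replicate number as a block (adjusted p = 0.00215). Between TRAIL+SN and SN, 0 of 9 genes passed the adjusted or the unadjusted p in limma, where 12.1% of all genes rose and 7.69% fell, and the log2 differences ran from −0.47 for MT1G (95% interval −0.99 to 0.05) to 0.10 for the 3′ probe of MT1E (−0.06 to 0.26). With the spike-in scaling, all 9 were lower in TRAIL+SN by adjusted p, under which the median of all genes moved from 0.02 to −0.49.

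With TRAIL+C3/C2 against NT, MT1B fell by 0.42 (adjusted p = 0.000231), MT1E by 0.29 (adjusted p = 0.00403) and MT1A by 0.18 (adjusted p = 0.0378). MT1X by its 3′ probe rose by 0.55 (adjusted p = 0.000971), with arrays at −1.61, −1.78, −1.72 and −1.63, though the difference ranged from −0.17 to 0.55 over the scalings. By adjusted p, 0 genes rose and 4 fell (39.8% and 29.5% of all genes), with MT1M called lower (16.2% higher and 7.94% lower). The number that fell was 7 with the array median and 9 with the spike-in scaling. When TRAIL was added to C3/C2, MT1H was 0.56 higher (adjusted p = 0.000345), MT1E 0.50 higher (adjusted p = 0.000107) and MT1X by the coding probe 0.46 higher (adjusted p = 0.000405) than with C3/C2 alone, across slides, and each changed sign when arrays were scaled to the spike-in probes. Those 3 genes rose and MT1M fell by adjusted p (21.1% and 14% of all genes; 0 rose and 5 fell with the spike-in scaling), and MT1M was called lower (1.59% higher and 2.13% lower).

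With TRAIL alone, 4 of 9 members passed the test. MT1H rose by 0.42 (SE 0.11, adjusted p = 0.00499), MT1X by its coding probe by 0.28 (SE 0.09, adjusted p = 0.0215) and MT1E by 0.26 (SE 0.08, adjusted p = 0.0225), each with arrays that overlapped NT. The 3′ probe of MT1X differed by 0.07 (95% interval −0.21 to 0.35), MT2A by 0.06 (−0.18 to 0.29) and MT1G by −0.30 (−0.82 to 0.22). By adjusted p, 3 genes rose and 1 fell (19.9% and 12.9% of all genes), and MT1M was called lower (0.744% higher and 2.18% lower). The number that rose was 1 without NT replicate 3 or 4, without TRAIL replicate 1 or 2, with quantile normalization or with TRAIL and NT alone in the fit, and 0 with the spike-in scaling, while MT1M fell in each of these. MT1B differed by −0.20 (adjusted p = 0.088) and passed with the replicate number as a block (adjusted p = 0.0212).

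**Figure D2:**
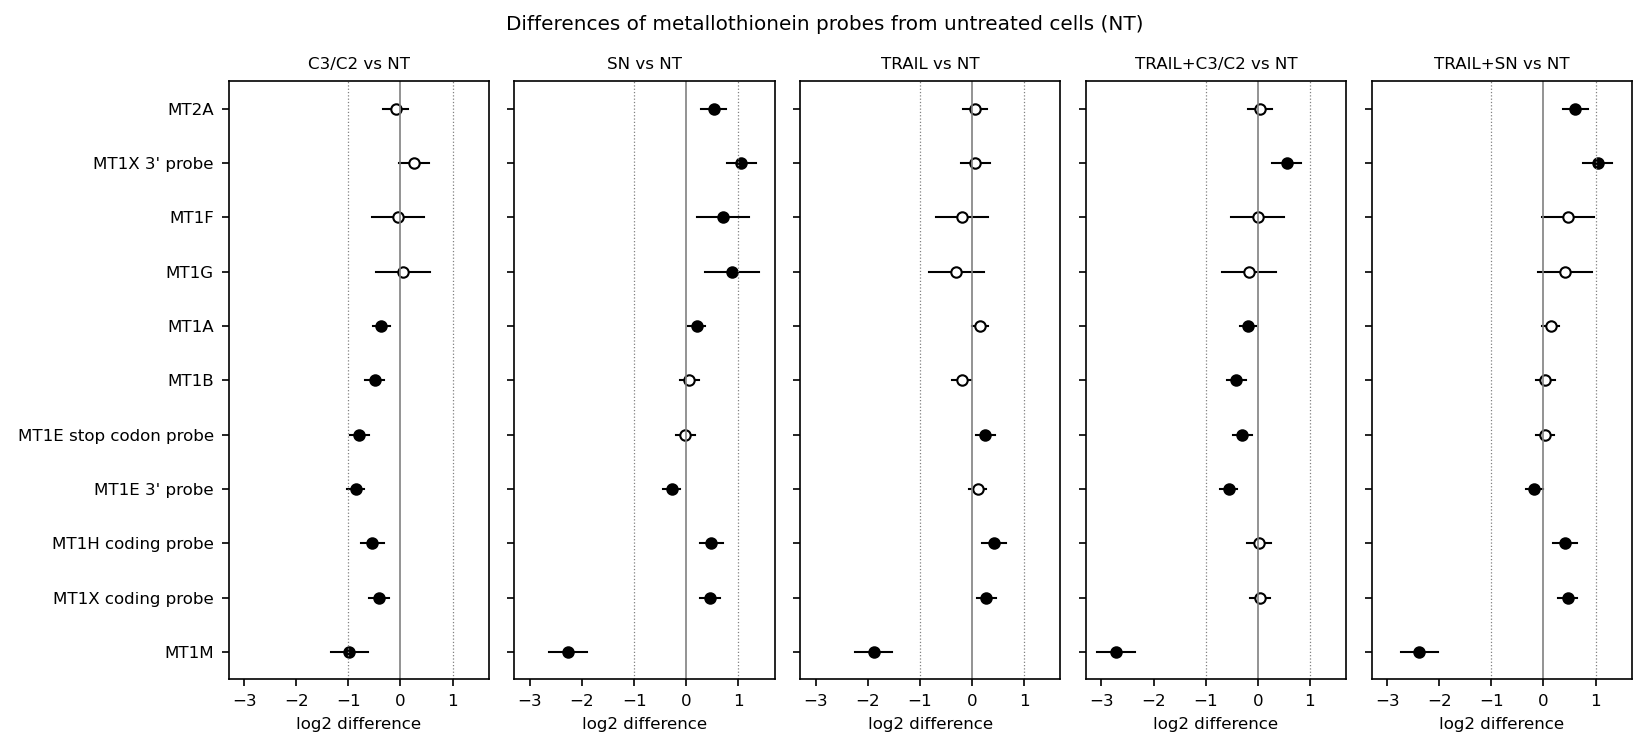
Each panel gives the log2 difference of the member probes from NT for 1 treatment, with the 95% confidence interval (n = 4 arrays a group). Filled points have an adjusted p under 0.05 and dotted lines mark a fold of 2. MT1M lies left of 0 in all 5 panels, the other probes lie near or left of 0 in C3/C2 except the 3′ probe of MT1X, and that probe passes the right dotted line in SN and TRAIL+SN.

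MT1M had the largest change of the family and fell against NT in every treatment, together with other members in C3/C2 and TRAIL+C3/C2 and against the rise of others in the remaining treatments. Its levels were 0.77, 1.44, 1.34 and 1.42 in NT and −0.37, 0.30, 0.60 and 0.50 in C3/C2. In SN they were −0.88, −1.02, −1.12 and −1.10, in TRAIL −0.47, −0.60, −0.52 and −0.999. The order from high to low was NT, C3/C2, TRAIL, SN, TRAIL+SN and TRAIL+C3/C2, with co-treated arrays at −1.29 to −1.02 for TRAIL+SN and −1.63 to −1.41 for TRAIL+C3/C2. The neighbours TRAIL and SN overlapped, as did SN and TRAIL+SN.

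Against NT, MT1M fell by 0.98 in C3/C2 cells (SE 0.17, 1.97-fold, adjusted p = 3.92e-05), by 2.27 in SN cells (4.82-fold, adjusted p = 1.89e-10) and by 1.89 in TRAIL cells (3.70-fold, adjusted p = 7.18e-08). With the co-treatments it fell by 2.72 in TRAIL+C3/C2 cells (6.61-fold, adjusted p = 9.82e-12) and by 2.38 in TRAIL+SN cells (5.21-fold, adjusted p = 7.61e-11). It was called lower in 4 of these 5 comparisons and missed the fold in C3/C2, though it passed it there without NT replicate 1 (−1.14) and without C3/C2 replicate 3 (−1.09) or 4 (−1.06).

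MT1M also differed between slides within a group. On slide 1 it was 0.63 lower than on slide 2 in NT and 0.84 lower in C3/C2, a mean of −0.73, and 0.894% of 20703 genes had a shift as low or lower. The 452 genes called lower with TRAIL had a median shift of −0.52 between these slides, against 0.016 for all genes. C3/C2 was below NT within slide 1 (by 1.14, 1 array against 1) and within slide 2 (by 0.93, 3 against 3). Without the arrays of slide 1, MT1M differed from NT by −2.42 in SN, −2.04 in TRAIL, −2.88 in TRAIL+C3/C2 and −2.54 in TRAIL+SN.

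On shared slides, MT1M differed by −0.38 between SN and TRAIL (SE 0.17, 95% interval −0.74 to −0.02, adjusted p = 0.0574) and by 0.34 between TRAIL+SN and TRAIL+C3/C2 (−0.02 to 0.70, adjusted p = 0.128). Across slides, SN was 1.29 below C3/C2 (2.44-fold, adjusted p = 4.09e-06) and TRAIL+C3/C2 was 1.74 below C3/C2 (3.35-fold, adjusted p = 1.47e-07). The falls with SN and with TRAIL did not add up in the co-treatment, where the interaction was 1.77 (SE 0.24, adjusted p = 4.59e-05). That interaction spans all 4 slides. MT1M was called in it, and MT1H had an interaction of −0.49 (adjusted p = 0.0256), below the fold. The MT1H interaction missed the test without NT replicate 3 or 4, SN replicate 1, or TRAIL replicate 1 or 3 (adjusted p = 0.0529 to 0.0585). It also missed with no filter on dim probes (adjusted p = 0.0565) and with quantile normalization (−0.40, adjusted p = 0.05). In the main fit, 1 member was higher and 1 lower by adjusted p (10.7% and 11.9% of all genes), and 1 was called higher (2.73% higher and 0.328% lower). The number lower was 3 with the array median and 3 with the spike-in scaling. For TRAIL with C3/C2, 0 members passed the adjusted p in limma and 1 had an unadjusted p under 0.05 (1.62% of all genes higher and 1.02% lower by adjusted p, 0.483% and 0.155% with the fold).

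**Figure D3:**
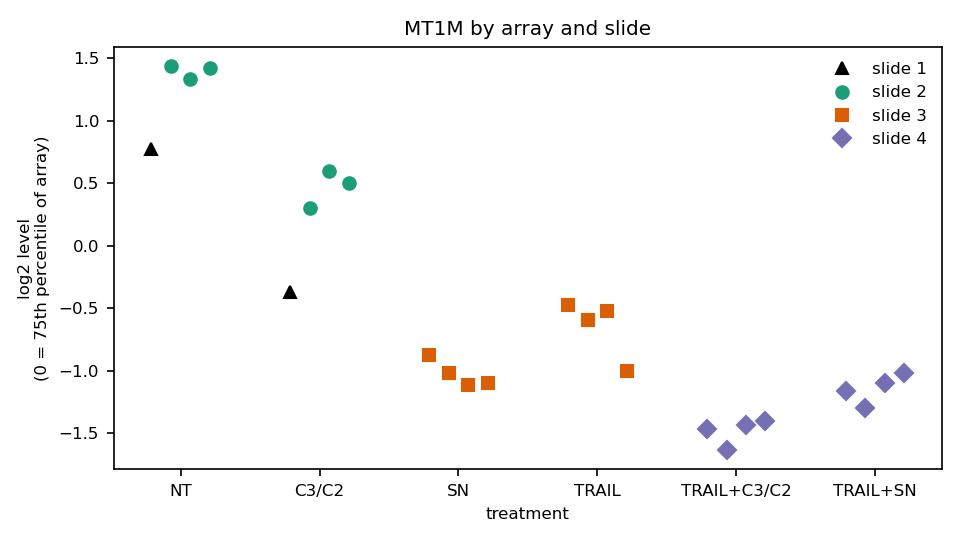
The level of MT1M on each of the 24 arrays, in log2 units over the array's 75th percentile, is set out by treatment. Marker shape and colour show the slide. Both arrays of slide 1 lie below the arrays of the same group on slide 2, and all arrays of slides 3 and 4 lie below those of both NT and C3/C2.

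**Figure D4:**
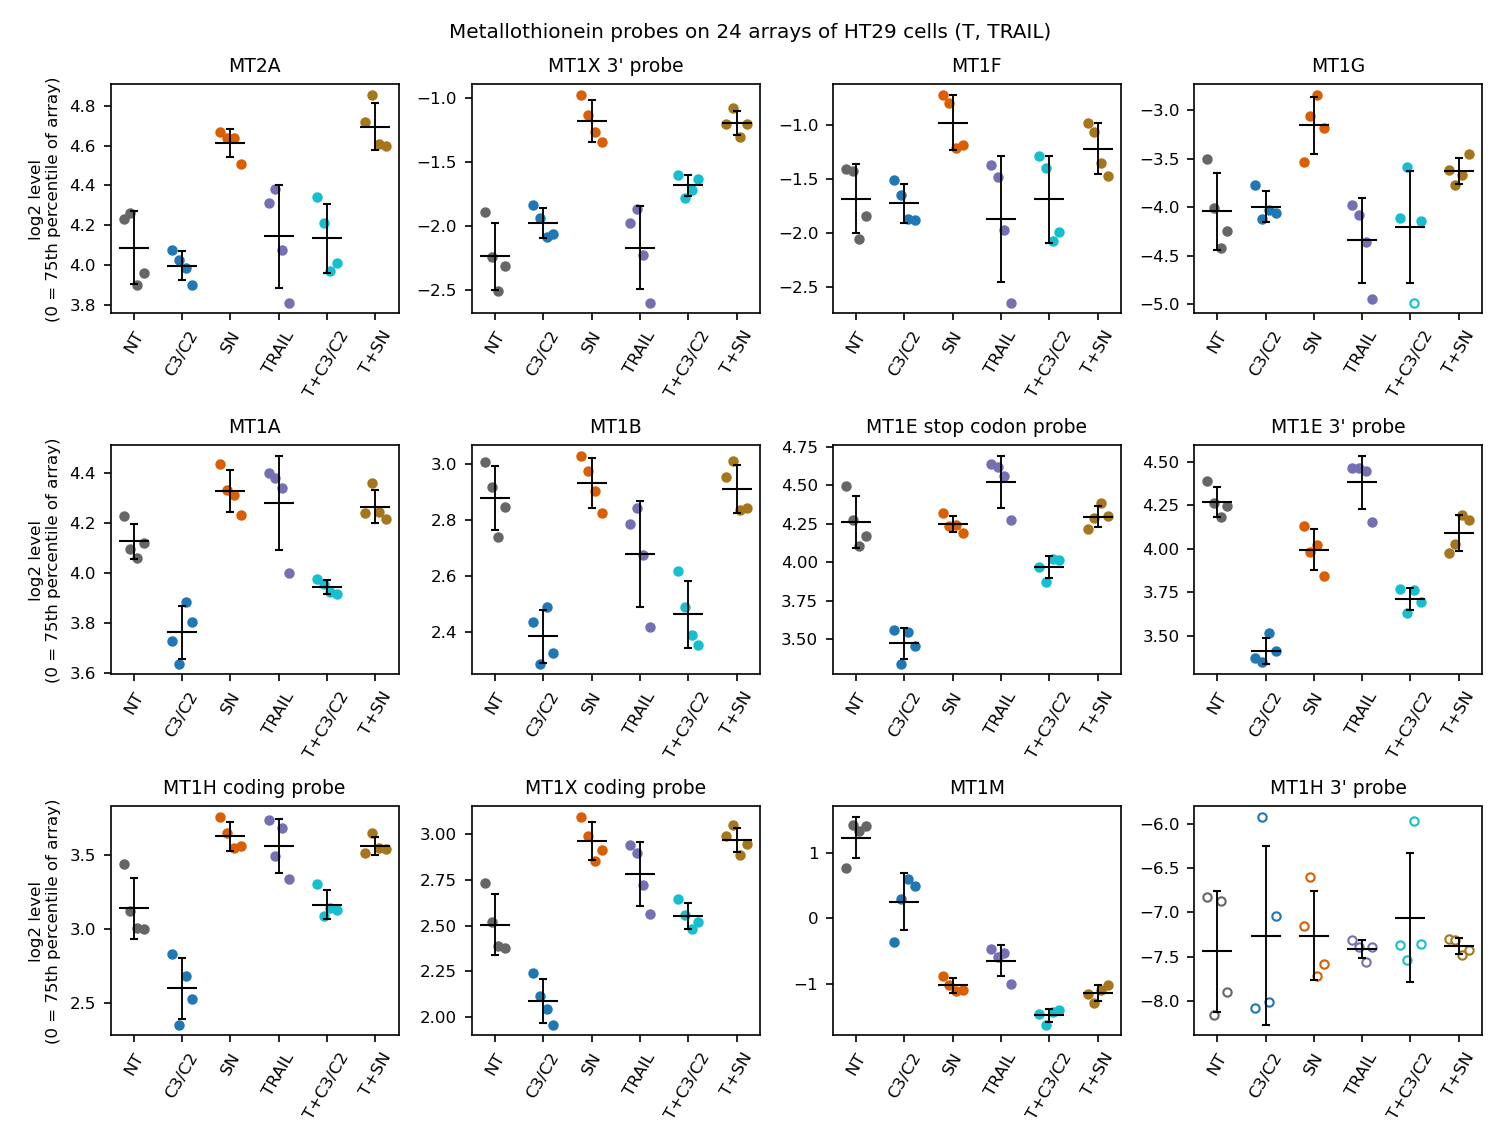
Each of the 12 panels gives 1 probe, with the level on every array (log2, over the array's 75th percentile) by group and the mean ± SD over 4 arrays. Panels have their own ranges, and open circles are arrays not well above background. MT2A and the 3′ probe of MT1X are higher in SN and TRAIL+SN than in the other groups, MT1E is lower with C3/C2, and the 3′ probe of MT1H is open throughout.

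The levels of the members were correlated over the 24 arrays, in sets formed after the values were seen. Among MT1F, MT1G, MT2A and the 3′ probe of MT1X, the 6 pairwise correlations ran from 0.70 to 0.88. Among MT1A, MT1B, both probes of MT1E and the coding probes of MT1H and MT1X, the 15 correlations ran from 0.63 to 0.95, the highest being between MT1H and MT1X, whose probes share the 26 bases shown above. Both probes of MT1E, which share a run of 28 bases, correlated at 0.946. Between both sets they ran from −0.08 to 0.83, and those of MT1M with the other probes from −0.64 to 0.12. The coding and the 3′ probe of MT1X, meant for the same gene, correlated at 0.66. With the group means removed, the sets were not apart: the correlations ran from 0.48 to 0.93 in the first set, from 0.44 to 0.85 in the second and from 0.25 to 0.90 between them, and both probes of MT1X reached 0.90. These arrays share treatments and slides, so the correlations are a description.

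The 3′ probe of MT1H had levels from −8.16 to −5.92 over all arrays, none of them well above background, while its coding probe was well above background on every array. The 3′ probe thus did not show the signal read by the coding probe. Whether that signal, and its rise, come from MT1H transcripts was not tested.

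The promoters of MT2A and MT1X are shown because both genes rose with SN. Each is the 200 bases before the start in RefSeq on GRCh38.p14, on the plus strand, with the core of the metal response element in capitals, searched as TGCACNC or TGCGCNC on both strands.
MT2A, chr16:56608384-56608583: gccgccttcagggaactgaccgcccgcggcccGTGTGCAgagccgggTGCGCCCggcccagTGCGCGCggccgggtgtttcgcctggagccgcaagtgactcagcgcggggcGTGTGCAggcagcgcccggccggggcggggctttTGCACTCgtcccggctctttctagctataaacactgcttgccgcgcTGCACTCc
MT1X, chr16:56682270-56682469: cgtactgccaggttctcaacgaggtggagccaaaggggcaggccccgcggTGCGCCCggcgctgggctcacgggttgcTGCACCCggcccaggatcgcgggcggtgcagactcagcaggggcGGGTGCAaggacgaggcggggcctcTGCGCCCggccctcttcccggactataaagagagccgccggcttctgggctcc
These stretches hold 6 and 4 matches. In the full 300 bases of the table (250 before and 50 after the start), with overlapping matches counted separately, MT2A and MT1H have 8 matches each, MT1X 4 and MT1B 3. Of 35116 promoters in the table, 29.6% have at least 1 match, 2.3% at least 3, 0.6% at least 4 and 0.02% at least 8. A match is a string of letters and not a site, and whether the matches bear on the changes was not tested. With SN against NT, MT2A and the coding probes of MT1H and MT1X rose, and MT1B did not change past its spread. Promoters of MT1A, MT1E, MT1F, MT1G and MT1M were not analysed here.

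The genes that sense and move metals were taken from lists. MTF1, the factor named above, rose in every treatment, least with TRAIL (0.26), then C3/C2 (0.49), TRAIL+C3/C2 (0.80), SN (0.83) and TRAIL+SN (0.92; SE 0.07 each), and was never called at 2-fold. With the spike-in probes MTF1 did not pass in TRAIL (0.03, adjusted p = 0.867) or TRAIL+C3/C2 (0.08, adjusted p = 0.545), nor with the array median in C3/C2 (0.19, adjusted p = 0.0731). It was 0.33 higher with SN than with C3/C2 (adjusted p = 0.000402), and differed by 0.12 between TRAIL+SN and TRAIL+C3/C2 (adjusted p = 0.154).

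SLC30A1, which exports zinc from the cell and is a known target of MTF1, rose by 0.78 in C3/C2 cells and 1.04 in SN cells, and by 0.96 in TRAIL+C3/C2 and 1.14 in TRAIL+SN cells (SE 0.13 each), while TRAIL differed by −0.10. The SN value fell short of 2-fold without SN replicate 3 (0.97) or 4 (0.99), with the array median (0.92) and with normexp (0.98). With the spike-in probes TRAIL+C3/C2 differed by 0.23 (adjusted p = 0.241). SLC30A1 in TRAIL+SN fell short with the array median (0.94) and the spike-in probes (0.67). Its promoter in the table holds 2 matches to the element. SN and C3/C2 differed in it by 0.27 (adjusted p = 0.107). SLC30A1 thus went up with C3/C2, in which 6 of the metallothionein genes went down.

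SLC30A2, a transporter that loads zinc into vesicles, rose by 1.60 in C3/C2 cells and 2.60 in SN cells (SE 0.27), and by 1.67 and 2.49 when TRAIL was added. It fell short of 2-fold with normexp in C3/C2 (0.95) and with the spike-in probes in TRAIL+C3/C2 (0.94). Between SN and C3/C2 it differed by 1.00 (adjusted p = 0.00537), and between TRAIL+SN and TRAIL+C3/C2 by 0.82 (adjusted p = 0.0225). SLC30A4, of the same family, was well above background on all C3/C2 and SN arrays and on 1 of 4 NT arrays. Its differences from NT of 2.88 and 2.44 (SE 0.32) fell to 0.92 and 0.77, under 2-fold, with normexp background correction. SLC30A6 differed by −0.53 with C3/C2 (adjusted p = 0.161) and had no SN, TRAIL+C3/C2 or TRAIL+SN array well above background. By the deposited intensities it was at least 5.03-fold, 3.62-fold and 3.64-fold lower there than in NT. With normexp background correction these differences were −0.97, −0.55 and −0.61, under 2-fold. With TRAIL, where 1 of 4 arrays was well above background, SLC30A6 differed by −2.25 (adjusted p = 2.04e-05), and by −0.67 with normexp. It was also 0.67 lower on slide 1 than on slide 2 in NT and 0.50 lower in C3/C2. Of 10 zinc exporters 8 were tested, and against NT 2 were called higher and 0 lower with C3/C2. The counts were 3 and 1 in both SN and TRAIL+SN, 2 and 1 in TRAIL+C3/C2, and 0 and 1 in TRAIL cells. Over all genes, 13.4% were called higher and 6.18% lower with C3/C2, 14.2% and 9.75% with SN, and 0.744% and 2.18% with TRAIL. The shares were 16.2% and 7.94% in TRAIL+C3/C2 and 16.1% and 10.1% in TRAIL+SN. Of 14 zinc importers 13 were tested and 0 were called in any of these comparisons, with median differences of 0.19 for C3/C2 and 0.23 for SN. The importer differences with SN ran from −0.93 for SLC39A10 to 0.62 for SLC39A14.

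All 9 genes of metal sensing and copper handling were tested, of which 4 were called higher in each of C3/C2, SN and TRAIL+SN. The number was 3 in TRAIL+C3/C2 cells, and no gene of the list was called with TRAIL. Over all genes, 13.4% were called higher with C3/C2, 14.2% with SN, 16.2% with TRAIL+C3/C2, 16.1% with TRAIL+SN and 0.744% with TRAIL. ATP7B, at 1.02 in both co-treatments, fell short of 2-fold there without NT replicate 1 (0.98 and 0.97) or 2 (0.99 in both), in TRAIL+C3/C2 without its replicate 2 (0.99), and under each other scaling and background setting, down to 0.30 in TRAIL+C3/C2 with the spike-in probes. SLC31A1 in C3/C2 cells fell short with the array median (0.78) and the spike-in probes (0.95). ATP7A in TRAIL+C3/C2 cells fell short with the array median (0.93) and the spike-in probes (0.56). In TRAIL+SN cells ATP7A (0.98) and SLC31A1 (0.77) fell short with the spike-in probes. SLC31A2, related to the copper importer, rose by 2.08 with C3/C2 and 1.74 with SN. SLC31A1, the copper importer, rose by 1.09 and 1.44, and SN was above C3/C2 by 0.36 (adjusted p = 7.65e-05). The copper pumps ATP7A and ATP7B rose by 1.31 and 1.21 in C3/C2 cells and by 1.27 and 1.20 in SN cells. Of 8 genes of iron handling 1 was called higher in each treatment but TRAIL, a number near the shares of all genes above. This gene, HMOX1, breaks down haem. It rose by 1.48 with C3/C2 and 2.30 with SN (SE 0.17), with 0.82 between these groups (adjusted p = 0.000377) and 0.70 between the co-treatments (adjusted p = 0.00216).

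Among 11 other metallothionein entries, 4 passed the filter. MT1L, a pseudogene whose probe matches that of MT1E at 38 of 42 aligned positions, fell by 0.57 with C3/C2 (adjusted p = 5.22e-06) and was 0.61 higher with SN than with C3/C2 (adjusted p = 6.51e-06). MT3, the form known from brain, rose by 0.35 with C3/C2 (adjusted p = 0.000481) and fell by 0.37 with TRAIL (adjusted p = 0.00114). MTL5, named a metallothionein-like gene of the testis, fell by 1.81 under C3/C2 and 2.22 under SN. By the deposited intensities it was at least 5.19-fold and 5.22-fold lower in TRAIL+C3/C2 and TRAIL+SN than in NT. With normexp background correction MTL5 differed by −0.81 in both C3/C2 and SN, −0.56 in TRAIL+C3/C2 and −0.64 in TRAIL+SN, all under 2-fold. MTL5 was the only gene of this list called in these comparisons, where 6.18% (C3/C2) to 10.1% (TRAIL+SN) of all genes were called lower. MT1IP did not pass the adjusted p against NT.

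**Figure D5:**
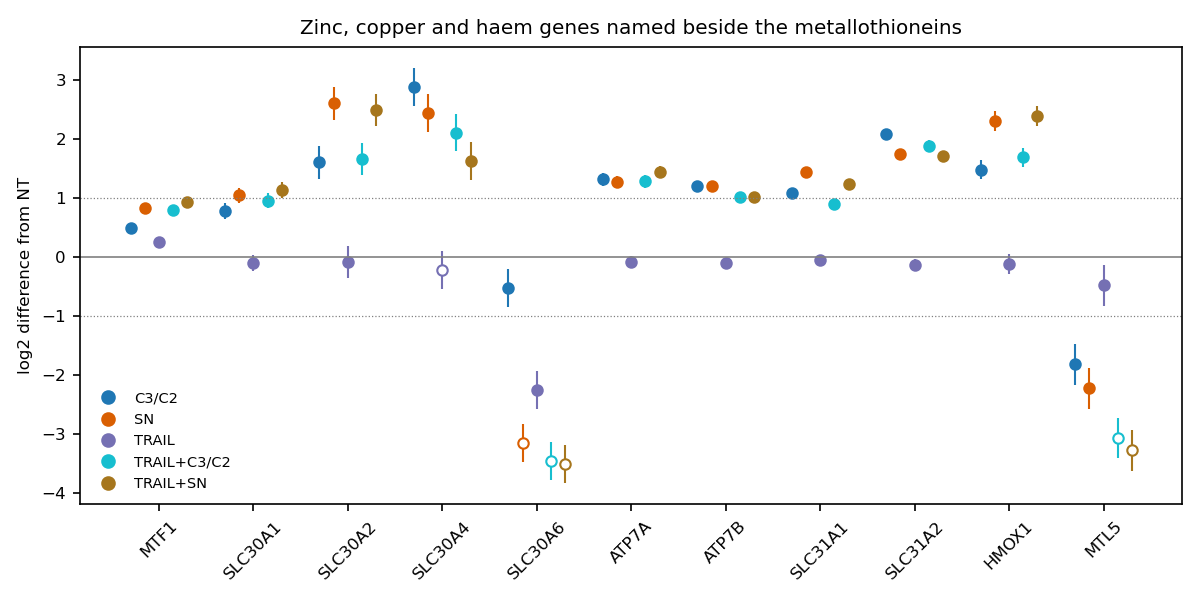
The log2 difference from NT, with its standard error (n = 4 arrays a group), is given for MTF1, SLC30A1, SLC30A2, SLC30A4, SLC30A6, ATP7A, ATP7B, SLC31A1, SLC31A2, HMOX1 and MTL5 in the 5 treatments. Open markers stand where no array of one of the groups was well above background. Values of the copper and iron genes are near 0 with TRAIL and from 0.90 (SLC31A1) to 2.39 (HMOX1) with the other treatments, while SLC30A6 and MTL5 lie below 0.

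The genes whose levels ran most like the mean of the members over the 24 arrays were, out of 14939 compared, MT1L (r = 0.91), SKA1 (0.90), WDFY1 (0.86), SH3RF1 (0.86) and OSBPL1A (0.85). Within groups, after removing the group means, these correlations were 0.88, 0.69, 0.42, 0.54 and 0.73. The points share treatment, slide and scaling.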

How the data were processed

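RNA of 24 HT29 cultures was labelled with Cy3 and hybridised singly to Agilent whole human genome arrays. Spot intensities were read by the authors with Agilent Feature Extraction 10.7, per the file headers with spatial detrending and background subtraction, and deposited them without normalization between arrays. A second deposited table holds intensities found here to be the same intensity divided by the array median (largest relative difference 8.52e-06). It served as a scaling alternative, and its 24 flag columns were not used. Raw mean signal and local background intensities, as deposited, served one alternative. Their further steps in Rosetta Resolver were not repeated.

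Control and outlier spots were left out. Deposited intensities were put on the log2 scale, averaged over the spots of each probe and lowered by the array's 75th percentile. Probes flagged well above background throughout at least 1 group of 4 arrays (27957 probes, 20703 genes) entered a limma 3.58.1 fit of 6 group means over 24 arrays (R 4.3.3, 18 residual degrees of freedom), with Benjamini-Hochberg adjustment over all of these probes. In all, 12 comparisons were made. A fold against a group with no array well above background is a lower bound under the deposited background subtraction. The number of arrays limits precision, and log2 differences from NT had a median standard error of 0.112. Tested on simulated data for SN against NT (27957 probes), the fit called 100 of 100 probes changed by 2 log2 units, 92 of 100 changed by 1.5, and 5 of 27757 unchanged ones. The simulated arrays were independent and had no slide effect, so calls due to shared slides or experiments are not covered. Members other than MT1M changed against NT by less than the simulated sizes.

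The members and lists were chosen with earlier results of these data known. All members are named by each probe. Of the lists, genes called against NT were named, at most 4 a list by size. MTF1, SLC30A1 and the 5 genes most alike in pattern were named too. The list members given as extremes and the other metallothionein entries were added after their values were seen. Alternatives were scaling, background correction, filters, outlier spots, probe choice, slide, threshold, the samples in the fit, the replicate block and leaving out each array. Same-numbered arrays deviated together (every r over 0.1) in 8 of 10 pairs of groups compared, the exceptions being NT with each co-treatment (lowest 0.097 and 0.085). Among pairs not compared directly, the lowest r of TRAIL was 0.064 with TRAIL+C3/C2, 0.052 with TRAIL+SN and 0.094 with C3/C2. The remaining pairs were over 0.1. Promoter sequences are from RefSeq (GRCh38.p14) and probe coordinates from the files (hg19). Searches used Biopython 1.88 and figures matplotlib 3.10.9. A marker gene is not reported here.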

Additional observations from a re-analysis of the deposited data

Results flagged for a closer look

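Single arrays stood apart from the other 3 of their group in 3 of 132 gene-by-group values examined, and chance alone sets about 1 in 20 such values apart. MT1A in TRAIL replicate 4 was at 4.00, with the others at 4.34 to 4.40. The 3′ probe of MT1E in the same replicate was at 4.15, with the others at 4.45 to 4.47. MT1M in NT replicate 1, the array of slide 1, was at 0.77, with the others at 1.34 to 1.44. The effect of TRAIL differed with and without SN in 3 genes by the interaction in limma. It was 1.77 for MT1M (SE 0.24, adjusted p = 4.59e-05), −0.49 for MT1H (SE 0.15, adjusted p = 0.0256) and 1.89 for SLC30A6 (SE 0.45, adjusted p = 0.00525), whose values in SN and TRAIL+SN were not well above background. The interaction of MT1H missed the test in 5 fits without a single array (adjusted p = 0.0529 to 0.0585). It also missed with no filter on dim probes (adjusted p = 0.0565) and with quantile normalization (adjusted p = 0.05). These interactions compare arrays of different slides, and slide and treatment cannot be told apart in them.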

How the results depend on the processing

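No member called by fold and adjusted p changed direction under any alternative (changes of sign below the fold stand beside their results), and the number of members called kept its value except as follows. Against NT, C3/C2 had 0 members called, and 2 with scaling to the array median, 1 with the spike-in probes, 1 with quantile normalization, 6 without a minimum fold and 0 to 1 when single arrays were left out. SN had 1, and 7 without a minimum fold, 2 without the arrays of slide 1, 2 with the 3′ probe of each gene (chosen after seeing the data) and 1 to 2 without single arrays. TRAIL had 1, and 4 without a minimum fold. TRAIL+C3/C2 had 1, and 3 with the spike-in probes and 4 without a minimum fold. TRAIL+SN had 1, and 4 without a minimum fold and 2 with the 3′ probes. Between SN and C3/C2 the number was 2, and 4 with the array median, 4 with the spike-in probes, 1 with quantile normalization, 9 without a minimum fold, 1 with the 3′ probes and 1 to 2 without single arrays (1 without C3/C2 replicate 2 or SN replicate 1). Between TRAIL+SN and TRAIL+C3/C2 it was 0, and 6 without a minimum fold. Between SN and TRAIL it was 1, and 0 with the array median, normexp, quantile normalization or the filter on all 24 arrays (which drops MT1G), 2 with the spike-in probes, 5 without a minimum fold and 0 to 2 without single arrays. TRAIL+C3/C2 against C3/C2 went from 1 to 4, and the interaction of TRAIL and SN from 1 to 2, without a minimum fold. Counts rise without the fold because that condition is dropped, and the cause of the other changes was not tested. The replicate number as a block changed no number of members called (2 for SN against C3/C2, 0 for TRAIL+SN against TRAIL+C3/C2), and by adjusted p alone it added MT1F in the latter and in TRAIL+SN against NT, MT1B in TRAIL against NT, and a probe of MT1X in 4 comparisons (adjusted p = 0.0362 for C3/C2 against NT, 0.03 for TRAIL+C3/C2 against C3/C2, 0.00544 for SN against TRAIL and 0.0102 for the interaction of TRAIL and SN). The slide as a random block had a correlation of 0.0179.

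Other scalings moved the calls over all genes. With the array median, the shares called higher and lower were 9.67% and 11.3% for C3/C2 against NT, 11.1% and 15.1% (TRAIL+C3/C2), 12.9% and 13.9% in TRAIL+SN, 2.39% and 3.05% for SN against C3/C2, 1.75% and 1.68% for TRAIL+SN against TRAIL+C3/C2, and 10.2% and 12.5% for SN against TRAIL. With the spike-in probes they were 0.42% and 3.39% for TRAIL against NT, 7.56% and 29.1% (TRAIL+C3/C2), 9.66% and 21.6% in TRAIL+SN, 2.42% and 3.01% for SN against C3/C2, 2.54% and 1.28% for TRAIL+SN against TRAIL+C3/C2, 18.2% and 4.66% for SN against TRAIL, and 0.633% and 10.5% for TRAIL+C3/C2 against C3/C2, and the median of all genes moved to −0.63 (TRAIL+C3/C2) and −0.43 (TRAIL+SN) against NT. With quantile normalization they were 13.2% and 11% for TRAIL+C3/C2 against NT, 1.76% and 3.6% for SN against C3/C2, and 1.5% and 2.09% for TRAIL+SN against TRAIL+C3/C2. The normexp background gave 0.338% and 0.406% for TRAIL+SN against TRAIL+C3/C2. Signals near background limit MT1G and the 3′ probe of MT1H.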

Other observations

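Replicates 1 and 2 both had higher levels than replicates 3 and 4 in 6 of 6 groups for MT1F, MT2A and the coding probe of MT1X, and in 5 groups for MT1B. Over all 20703 genes, 983 (4.75%) showed that order in all 6 groups and 650 (3.14%) the opposite order.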
